A study of Caenorhabditis elegans with 2 samples.

Results

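The cytosolic ribosomal protein genes of Caenorhabditis elegans were taken here as all protein-coding genes of the WBcel235 annotation named rpl- or rps- with a number. There are 78 of them among 19973 protein-coding genes, 47 of the large ribosomal subunit (rpl-) and 31 of the small subunit (rps-). The question was where tagged ELT-3 was found at their promoters. The data are ChIP-seq region lists from whole L3 larvae of mixed sex, made as 2 biological replicates of a single group. Both replicates are of strain OP75, with the genotype unc-119(ed3) III and the insertion wgIs75, which stably expresses ELT-3 fused at its C-terminus to GFP and FLAG. The labels give neither the copy number of the transgene nor the promoter that drives it. Chromatin was sonicated. No untagged, wild-type or elt-3 mutant group is part of the series, and the files of the control experiment that the labels point to were not used here.

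Ribosomal proteins build the large and small subunits of the ribosome together with ribosomal RNA, and their genes are among the most strongly transcribed in growing cells, in every tissue. The proteins are needed in near equal amounts, so their genes are often active together. ELT-3 is a zinc finger transcription factor of the GATA family, known in the worm for its role in the epidermis (hypodermis), and GATA factors recognise the sequence WGATAR, which stands for AGATAA or its variant AGATAG as well as TGATAA or its variant TGATAG, on either strand. In whole larvae the tissue in which a site was occupied cannot be read from the lists, and a tagged transgene need not have the level of the native protein.

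For each gene the strongest region of the list made from both replicates pooled was taken whose summit lay between 1000 bases upstream and 200 bases downstream of an annotated start. This span is called the promoter window below. Strength is the authors' own signal value of the region, on a scale that the sources used here do not give. The pooled list and the list of each replicate hold 30000 regions each, peaks and background together. The smaller IDR list holds the 774 regions that passed the authors' threshold on the irreproducible discovery rate, a measure of agreement between replicates, and these were the 774 highest regions of the pooled list. Read counts are not in the lists, so depth is unknown and the number of genes and peaks limits the precision.

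An IDR peak lay in the promoter window of 12 of the 78 ribosomal protein genes (15.4%, 95% exact interval 8.21 to 25.3), against 1.94% of all protein-coding genes. With the stronger 387 regions of the IDR list the count was 6, and the share of all coding genes with one of these is not given here. The strongest were at rpl-20, rpl-3, rpl-35 and rpl-15, with pooled signals of 63.2, 50.2, 49.6 and 47. None of these 4 peaks held WGATAR within 100 bases of its summit on either side. The sequences of rpl-20, rpl-35 and rpl-15 over this stretch are shown with those of rps-1, which also lacked it, and of rpl-7A, which held it. All are written 5′ to 3′ on the strand of the gene, from the WBcel235 genome of RefSeq.

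The windows lay at chrIV:4749976-4750176 (minus strand) for rpl-20, chrIII:7854575-7854775 (plus) for rpl-35, chrIV:654855-655055 (minus) for rpl-15, chrIII:4475552-4475752 (plus) for rps-1 and chrIV:4390574-4390774 (minus) for rpl-7A. Capitals mark WGATAR as well as GAGAGA and a pair of sequences found often in these peaks and described further on, namely TACGGT and also GGCCTA, wherever they occur on either strand.
rpl-20: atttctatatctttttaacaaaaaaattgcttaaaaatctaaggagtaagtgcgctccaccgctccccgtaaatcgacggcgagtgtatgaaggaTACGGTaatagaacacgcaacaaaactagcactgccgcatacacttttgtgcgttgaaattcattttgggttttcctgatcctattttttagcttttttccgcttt
rpl-35: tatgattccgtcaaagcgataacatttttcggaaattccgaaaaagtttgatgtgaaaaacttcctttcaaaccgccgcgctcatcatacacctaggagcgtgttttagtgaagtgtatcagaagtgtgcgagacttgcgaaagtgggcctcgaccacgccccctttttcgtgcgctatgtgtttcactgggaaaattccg
rpl-15: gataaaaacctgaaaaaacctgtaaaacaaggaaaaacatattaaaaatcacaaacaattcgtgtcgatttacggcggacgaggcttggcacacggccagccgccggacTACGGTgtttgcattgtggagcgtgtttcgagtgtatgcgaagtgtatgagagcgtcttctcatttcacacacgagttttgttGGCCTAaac
rps-1: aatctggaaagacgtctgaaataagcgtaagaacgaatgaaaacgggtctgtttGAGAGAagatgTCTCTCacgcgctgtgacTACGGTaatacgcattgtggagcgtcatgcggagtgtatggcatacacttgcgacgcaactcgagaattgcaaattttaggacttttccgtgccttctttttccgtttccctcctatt
rpl-7A: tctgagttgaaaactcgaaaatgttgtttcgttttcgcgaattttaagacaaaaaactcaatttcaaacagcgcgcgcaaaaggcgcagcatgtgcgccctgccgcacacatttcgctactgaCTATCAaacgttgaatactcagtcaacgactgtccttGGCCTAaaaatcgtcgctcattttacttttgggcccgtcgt
The capitals CTATCA in rpl-7A are the reverse complement of TGATAG and are the only WGATAR in these 5 windows. In rps-1 the capitals GAGAGA and, as its reverse complement, TCTCTC lie close to each other in front of TACGGT. Read towards the gene, TACGGT precedes GGCCTA in rpl-15.

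Peaks of the large subunit genes stood at 7 of 47 genes (14.9%, interval 6.2 to 28.3). rpl-20 had the highest pooled signal of all ribosomal protein genes, 63.2 at IV 4749906 to 4750245, which was rank 49 in the pooled list. Its summit lay 298 bases upstream of the start, and the signal was 34.2 in the replicate 1 list (rank 85) and 34 in the replicate 2 list (rank 20). It was thus among the strongest sites of either list.

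rpl-3 encodes a protein whose loops reach towards the peptidyl transferase centre. Its peak had a pooled signal of 50.2 at 246 bases upstream, with 22.8 in replicate 1 (rank 405) and 29.6 in replicate 2 (rank 37). The gene had a second, weak pooled region in its window with a signal of 13. rpl-35, whose protein lies near the exit of the peptide tunnel, had 49.6 at III 7854505 to 7854844, 459 bases upstream, with 22.7 (rank 410) and 25.8 (rank 67) in replicates 1 and 2. rpl-15 had 47 at IV 654785 to 655124, 379 bases upstream, with 30.9 (rank 137) and 17 (rank 325). Among the 12 genes these 4 were the ones whose peak ranked within the strongest 774 in both replicate lists.

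rpl-1, which encodes the protein of the mobile L1 stalk, had a pooled signal of 41.6 at I 2876497 to 2876836, 359 bases upstream. Replicate 1 gave it 32.4 (rank 110), while replicate 2 gave 5.97 (rank 14162), close to the median of that list, 5.91. The site was thus a strong one in replicate 1 alone. rpl-7 had 33.6 at I 110571 to 110910, 297 bases upstream, with 16.4 (rank 1163) and 15.6 (rank 440) in replicates 1 and 2. rpl-7A had 30.8 at IV 4390504 to 4390843, 84 bases upstream and nearest to its start of all 12, with 14.2 (rank 1940) and 14.5 (rank 564). Both of these genes ranked among the strongest 774 regions in replicate 2 alone.

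Peaks of the small subunit genes stood at 5 of 31 genes (16.1%, interval 5.45 to 33.7), a share close to that of the large subunit genes, with intervals that overlap over most of their length. rps-15, whose protein sits in the head of the small subunit, had 40.7 at I 8816417 to 8816756, 394 bases upstream, with 14.9 (rank 1619) in replicate 1 and 25.5 (rank 70) in replicate 2. rps-12 had 34.7 at 158 bases upstream, with 11 (rank 5326) and 23.7 (rank 92). These 2 peaks were among the strongest 100 of replicate 2 and fell outside the strongest 774 of replicate 1.

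rps-20, another gene for a protein of the small subunit head, had 31.9 at I 14469164 to 14469503, 231 bases upstream, with 16.4 (rank 1153) in replicate 1 and 14.5 (rank 556) in replicate 2. rps-1 had 31.8 at III 4475482 to 4475821, 266 bases upstream, with 13 (rank 2744) and 18.4 (rank 238). Both again stood higher by rank in replicate 2.

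rps-24 had the lowest signal of the 12, 29.7 at IV 385185 to 385524, close to 29.5, the lowest of the IDR list. Its summit lay 532 bases upstream, farthest from the start of the 12. Replicate 1 gave 25.4 (rank 300), and replicate 2 had no summit in the region. The region holds an inverted repeat with arms of 42 bases around a loop of 67 bases, at IV 385303 to 385453, and the arm occurs 16 times in the genome. The sources used here do not say how reads from repeats were placed. In the other 11 regions the longest inverted repeat found had arms of 12 bases. Without rps-24, a comparison added after the data were seen, 11 of 77 genes had an IDR peak.

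**Figure D1:**
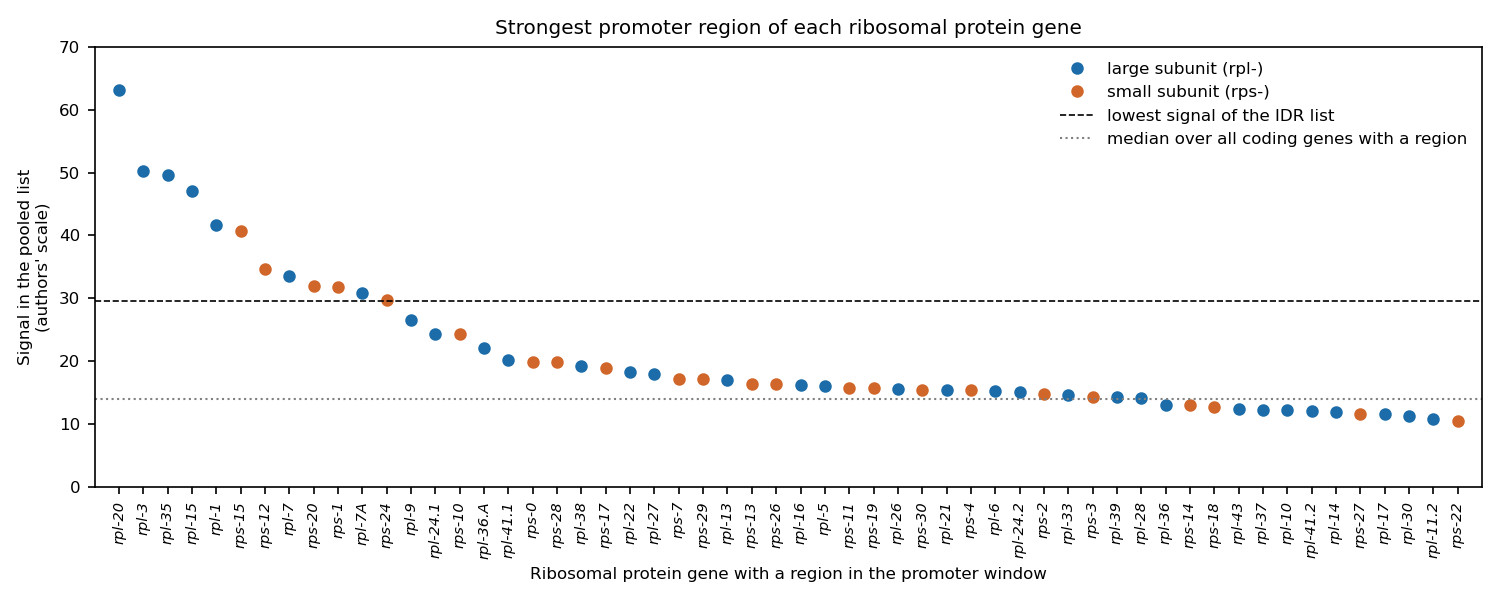
Signal of the strongest promoter region (vertical axis, authors' scale, pooled list) for each of the 56 ribosomal protein genes that had one, ordered by signal; blue points are large and orange points small subunit genes, the dashed line is the lowest signal of the IDR list (29.5) and the dotted line the median over all coding genes with a region (13.9). The 12 genes above the dashed line range from 29.7 to 63.2, and the other 44 from 10.4 to 26.6.

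Weaker regions were common as well. A pooled region of any strength lay in the promoter window of 56 of 78 ribosomal protein genes (71.8%, interval 60.5 to 81.4), against 40.9% of all coding genes. By subunit it was 33 of 47 large subunit genes (70.2%, 55.1 to 82.7) and 23 of 31 small subunit genes (74.2%, 55.4 to 88.1). The median signal of the strongest region was 16.3 (range 10.4 to 63.2) over these 56 genes, against 13.9 (10.3 to 99.6) over the 8162 coding genes with a region. Large subunit genes had a median of 16 and small subunit genes one of 16.4. Among genes with an IDR peak the medians were 37.7 for the 12 ribosomal protein genes and 36.5 for all 388 coding genes, which are close.

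The IDR threshold fell in a gap among these genes. Just inside it was rps-24 at 29.7, and just outside it rpl-9 at 26.6 (rank 1057), with a summit 275 bases upstream. rpl-9 ranked 5027 in replicate 1 and 446 in replicate 2, where its signal was 15.5, and so was the one ribosomal protein gene without an IDR peak whose region reached the strongest 774 of a replicate. rpl-24.1 and rps-10, a large and a small subunit gene, came next and had the same region, with a signal of 24.3 (rank 1414). Its summit lay 26 bases downstream of the start of rps-10, in the coding sequence of that gene, and 636 bases upstream of rpl-24.1. Replicate 1 gave this region 17.9 (rank 877), the highest value in that list of a ribosomal protein gene without an IDR peak, and replicate 2 gave 6.18 (rank 13174). Counted by overlap in place of a summit inside the region, replicate 2 gave 10.4. A second such pair, rpl-36 and rps-14, had 1 weak region in common, with a signal of 13 and its summit 479 bases upstream of rpl-36 and 184 upstream of rps-14.

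The next in order were rpl-36.A (22.1, 380 bases upstream), rpl-41.1 (20.2, 142 bases upstream), rps-0 (19.9, 272 bases upstream), rps-28 (19.8, 346 bases upstream) and rpl-38 (19.2, 441 bases upstream). rpl-38 again differed between the lists, with 14.2 (rank 1964) in replicate 1 and 4.99 (rank 22925) in replicate 2. rpl-36.A stood at 13.3 (rank 2507) and 10.4 (rank 1912), and rps-0 at 10 (rank 7500) and 11.3 (rank 1399) in replicates 1 and 2. Outside the pooled regions, rps-25 had a region in the replicate 2 list with a signal of 11.9 (rank 1185) and none in the pooled list. Replicate 2 also gave rpl-41.2 10.8 (rank 1633) in its window, with a summit outside the strongest pooled region of that gene.

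The 22 genes without a pooled region were rpl-2, rpl-4, rpl-11.1, rpl-12, rpl-18, rpl-19, rpl-23, rpl-25.1, rpl-25.2, rpl-29, rpl-31, rpl-32, rpl-34, rpl-42, rps-5, rps-6, rps-8, rps-9, rps-16, rps-21, rps-23 and rps-25. Of these, 15 had a region in at least 1 replicate list, and 7 had none in any list (rpl-19, rpl-31, rpl-34, rpl-42, rps-5, rps-8 and rps-9). The 22 genes had no pooled summit in the promoter window, but a listed region can still reach into it. Counted by any base of a region in the window, 63 of 78 genes had a pooled region, in place of 56. The share of all coding genes under that count is not given here. A site missing from a list of 30000 is below the weakest listed signal, which was 10.3 in the pooled list, and is not shown to be free of ELT-3.

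Some members share a number in their names. rpl-11.2 had a region at 10.8, close to the weakest of the pooled list, and rpl-11.1 none, while rpl-25.1 and rpl-25.2 both had none. rpl-24.1 stood at 24.3 and rpl-24.2 at 15.1. rpl-41.1 had 20.2 and rpl-41.2 had 12.1. None of these 8 genes had an IDR peak. Where such genes are near identical in sequence, reads can be hard to place, and the sources used here do not say how the authors placed them.

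The replicates differed in how they ranked the ribosomal protein genes. With the strongest 774 regions of replicate 2 alone, 11 of 78 genes had one in the promoter window (14.1%, interval 7.26 to 23.8), against 1.92% of all coding genes. With those of replicate 1 alone the count was 6 of 78 (7.69%, 2.88 to 16), against 1.91%. For small subunit genes the counts were 4 of 31 in replicate 2 and 1 of 31 in replicate 1, that one being rps-24. For large subunit genes they were 7 of 47 (14.9%, 6.2 to 28.3) in replicate 2 and 5 of 47 (10.6%, 3.55 to 23.1) in replicate 1. The small subunit intervals, 3.63 to 29.8 and 0.0816 to 16.7, overlap these. A list as long as the IDR list but taken from replicate 1 thus gave 6 ribosomal protein genes, in place of 12. The shares with a region of any strength were alike, at 55 of 78 in replicate 1 (70.5%, against 40.5% of all coding genes) and 57 of 78 in replicate 2 (73.1%, against 40.7%).

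Of the 12 genes with an IDR peak, 4 were among the strongest 774 of both replicates, 2 of replicate 1 alone (rpl-1 and rps-24) and 6 of replicate 2 alone. Of the 11 with a summit in both lists, 9 had a better rank in replicate 2 and 2 (rpl-15 and rpl-1) in replicate 1. Their median rank was 238 in replicate 2 and 1153 in replicate 1. Over all IDR peaks in promoter windows with summits in both lists, 138 of 326 (42.3%) ranked better in replicate 2. The lists need not share a scale, with medians of 8.18 in replicate 1 and 5.91 in replicate 2, so ranks within a list are compared here and not signals. With 2 replicates a difference between them is a difference between these samples, and its source was not tested.

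The 56 genes had 54 distinct strongest regions, since 2 pairs of genes had 1 in common. Counted by gene, both replicate lists had a summit inside the strongest region of 32, replicate 1 alone of 12, replicate 2 alone of 11 and neither of 1, rpl-41.2. Of the 32 genes, 26 ranked better in replicate 2 and 6 in replicate 1, with the region of rpl-24.1 and rps-10 counted for each gene. The matching shares over all pooled promoter regions are not given here. These counts thus do not show a trait of the ribosomal protein genes.

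**Figure D2:**
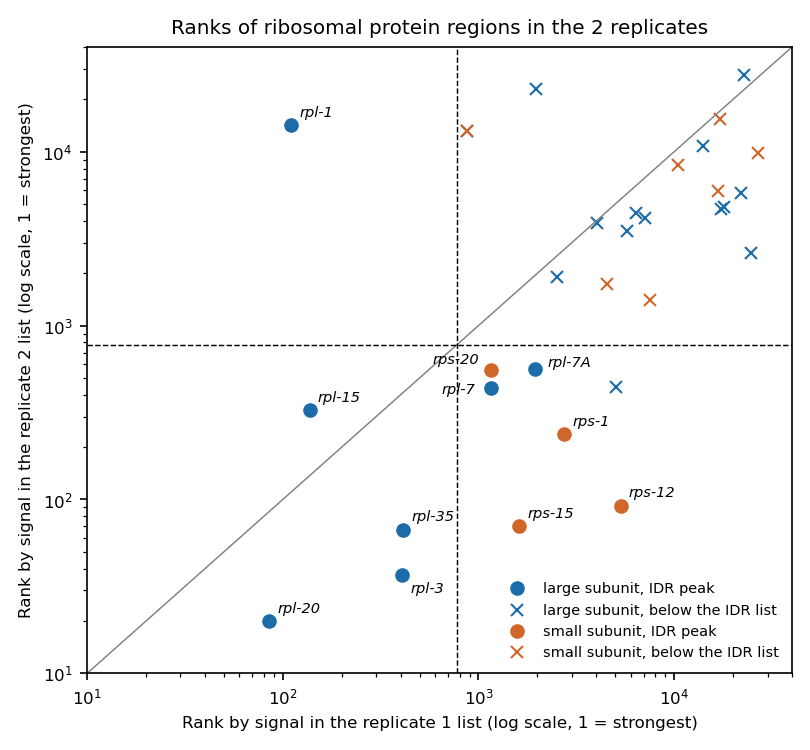
Rank by signal in the replicate 1 list (horizontal) and the replicate 2 list (vertical), both on log scales where 1 is the strongest, for the 32 ribosomal protein genes whose strongest region had a summit in both lists; filled circles are IDR peaks and crosses weaker regions, blue is large and orange small subunit, dashed lines mark rank 774 and the grey line equal ranks. Of the 11 circles, 9 lie below the line of equal ranks, with a better rank in replicate 2, and rpl-1 lies far above it; the cross of rpl-24.1 is covered by that of rps-10, which has the same region.

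The IDR peaks lay in front of the genes, as did those of 354 of the 388 coding genes with an IDR peak. All 12 IDR summits were upstream of the start, 84 to 532 bases away, and lay outside protein-coding genes. Their median was 297.5 bases upstream, near the 264.5 over all 388 coding genes with an IDR peak. Between 50 and 600 bases upstream, a span set after the positions were seen, were 12 of 12 ribosomal protein genes with an IDR peak, against 60.6% of the 388 coding genes with one. Because the span was set with these positions known, 12 of 12 is a description only. For regions of any strength the count in this span was 43 of 56 (76.8%), against 51.1% of coding genes with a region. The 43 include these 12, and among the 44 genes with a weaker region the count was 31 (70.5%). For the same reason these counts are a description too. Of the 56 genes, 51 had the summit of the strongest region upstream, against 6717 of the 8162 coding genes with a region. The median over all 56 was 335 bases upstream, near the 307 over those 8162 genes. For 42 of the 56 the summit lay outside protein-coding genes. Matching shares over all coding genes are not given here for summits outside protein-coding genes. The 42 of 56, and the 12 of 12 IDR summits, thus do not show a trait of the ribosomal protein genes. The 5 downstream summits were those of rps-10, rpl-6, rpl-22, rpl-26 and rpl-27. Trans-splicing is frequent in worms, and it can hide the place where transcription begins behind an annotated start farther downstream.

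**Figure D3:**
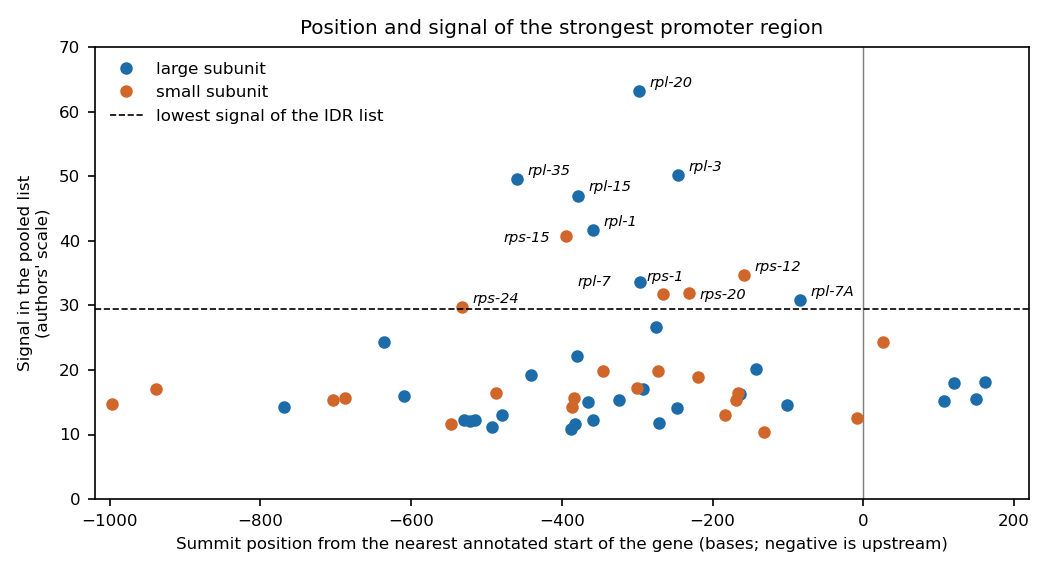
Position of the summit from the nearest annotated start of the gene (horizontal, bases, negative is upstream) and signal in the pooled list (vertical, authors' scale) for the strongest region of each of the 56 ribosomal protein genes with one; blue is large and orange small subunit, and the dashed line is the lowest signal of the IDR list. The 12 labelled IDR peaks lie between 84 and 532 bases upstream, while the weaker regions reach from 997 bases upstream to beyond the start.

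Most of these peaks lay between a ribosomal protein gene and a second gene that starts close by and runs the other way. Of the 12 IDR peaks, 9 (75%) fell in the promoter window of a further coding gene too, in each case on the opposite strand. Among all 343 IDR peaks in promoter windows, 50 (14.6%) were in windows of both strands. For weaker ribosomal protein regions it was 25 of 42 (59.5%), against 10.5% of all pooled regions in promoter windows. The 3 IDR peaks with a ribosomal protein gene as the single gene were at rpl-3, rpl-35 and rps-24.

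The partner genes had various functions. rpl-7 shared its peak with rab-11.1, which encodes a small GTPase of recycling endosomes, rps-1 with ifet-1, which encodes an eIF4E-binding repressor of translation, and rps-12 with ska-3, which encodes a kinetochore protein. rps-20 shared it with ekl-4, rpl-7A with set-21, rpl-20 with Y17G9B.5, rpl-15 with K11H12.8, rpl-1 with Y71F9AL.9 and rps-15 with F36A2.9. The starts of these pairs were 254 bases (rpl-7A and set-21) to 981 bases (rpl-7 and rab-11.1) apart.

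The summit was nearer to the ribosomal protein gene in 4 pairs (rpl-15, rpl-7, rps-1 and rpl-7A) and nearer to the partner in 5. Among these 5 the distances to gene and partner differed little at rps-15 (394 and 387 bases) and rps-12 (158 and 135 bases). At rpl-20 it lay 298 bases from the start of rpl-20 and 164 from that of Y17G9B.5. At rpl-7 it was 297 bases from rpl-7 and 684 from rab-11.1. With each peak given to its nearest start within 5000 bases, which replaces the promoter window as well, 8 ribosomal protein genes had an IDR peak, 6 of the large and 2 of the small subunit. The share of all coding genes under that rule is not given here. Which gene of a pair a site acts on cannot be told from its position.

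**Figure D4:**
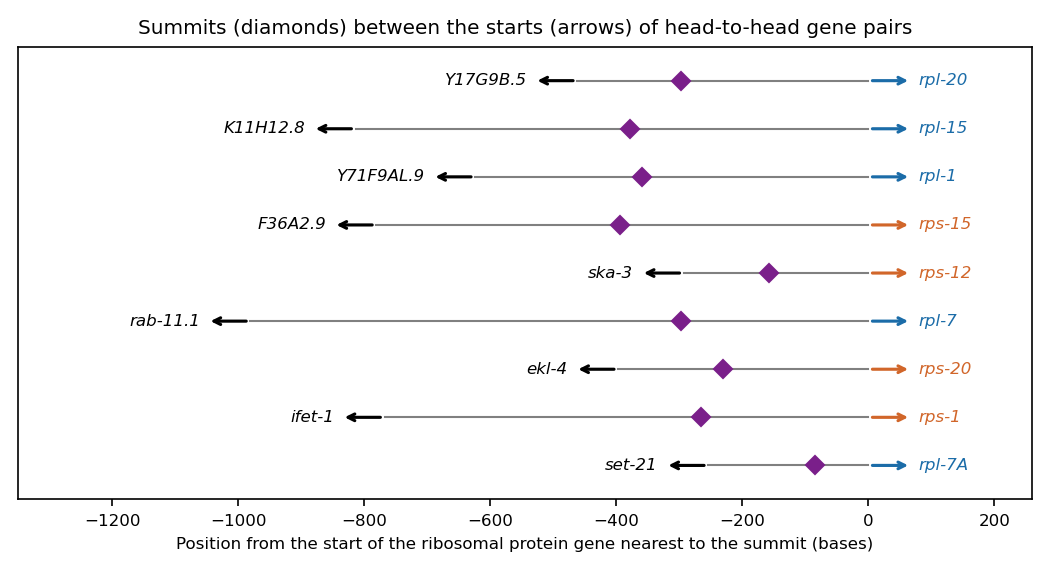
The 9 IDR peaks shared by a ribosomal protein gene and an opposite-strand neighbour, drawn to scale by position from the start of the ribosomal protein gene (horizontal, bases); arrows are starts and their direction, with the ribosomal protein gene on the right, and purple diamonds are the summits. Every summit lies between the starts, which are 254 to 981 bases apart, nearer to the ribosomal protein gene in 4 pairs.

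This arrangement is itself frequent among ribosomal protein genes. A start on the opposite strand lay within 1000 bases upstream of 47 of 78 (60.3%), against 18.2% of all coding genes. Of these 47 genes, 9 had an IDR peak (19.1%, interval 9.15 to 33.3), against 3 of the 31 without such a neighbour (9.68%, 2.04 to 25.8), and the intervals overlap. Among all coding genes the shares were 2.42% with a close opposite-strand neighbour and 1.84% without. In both arrangements the ribosomal protein genes thus had the larger share. Without such a neighbour this rests on 3 genes. They include rps-24, whose peak lies in an inverted repeat and had no summit in replicate 2.

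Many worm genes sit in operons, where a downstream gene is transcribed from the promoter of the gene before it. With no operon annotation used, a gene was called downstream-like when a coding gene on the same strand ended at most 500 bases upstream of its start. Of the 78 genes, 8 were of this kind (10.3%, against 20.2% of all coding genes), namely rpl-16, rpl-19, rpl-25.1, rpl-27, rps-2, rps-7, rps-16 and rps-17. None of the 8 had an IDR peak, which leaves room for a share of 37.5% (3 counts in 8) or, by the exact interval, 36.9%, while 12 of the other 70 had one (17.1%, 9.18 to 28). Among all coding genes 1.24% of the downstream-like ones had an IDR peak, so that 0 of 8 is near the background. A pooled region of any strength was present at 5 of the 8 (62.5%) and at 51 of the other 70 (72.9%). The highest signal among the 8 was 18.9, at rps-17. With so few genes the difference in IDR peaks was within the intervals.

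By chromosome the 12 genes were split evenly over I, III and IV, with 4 of 23, 4 of 18 and 4 of 17 ribosomal protein genes, against 2.92%, 2.5% and 1.55% of all coding genes on these chromosomes. On II, V and X the counts were 0 of 10, 0 of 8 and 0 of 2, against 1.36%, 1.36% and 2.64%, and so few genes can show no difference from these shares.

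The GATA sequence was rarer at these peaks than at other promoter peaks. WGATAR was present within 100 bases of the summit in 3 of 12 ribosomal protein IDR peaks (25%, interval 5.49 to 57.2), against 244 of the 331 IDR peaks in promoter windows without a ribosomal protein gene (73.7%, 68.6 to 78.4). The 3 were rpl-1 and rps-15, with 2 WGATAR each, and rpl-7A with 1. Of the large subunit peaks 2 of 7 held it, and of the small subunit peaks 1 of 5. Among weaker ribosomal protein regions it was 10 of 42 (23.8%, 12.1 to 39.5), against 42.9% of all pooled regions in promoter windows. Windows of the same length centred 300 bases upstream of every coding gene held it in 38.3%. TGATAA, which is one of the spellings of WGATAR, was present in 2 of the 12 (16.7%), against 56.5% of the other promoter IDR peaks and 19.7% of all promoters.

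Among the 9 peaks shared with an opposite-strand gene 3 held WGATAR, against 22 of 41 such IDR peaks without a ribosomal protein gene (53.7%, interval 37.4 to 69.3), and 9 peaks are too few to separate these shares. The letters were not missing from the wider promoters. Anywhere in the whole promoter window WGATAR occurred in 74 of 78 ribosomal protein genes (94.9%) and in 11 of the 12 with an IDR peak, against 93.3% of all coding genes. A match of 6 letters is a description of the sequence and does not show a binding site, and its lack in a window says nothing of how ELT-3 came to be there.

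GA sequences were counted in the same way. GAGAGA lay in 1 of the 12 peaks (8.33%, interval 0.211 to 38.5), that of rps-1, against 38.1% of the other promoter IDR peaks and 11.9% of all promoters of that length. GAGACG lay in 1 of the 12 (8.33%, 0.211 to 38.5), that of rpl-1, against 19.9% and 6.18%. Both intervals hold the shares of the other promoter IDR peaks, so no difference was detectable with 12 peaks. In the weaker ribosomal protein regions the counts were 9 of 42 (21.4%) for GAGAGA and 5 of 42 (11.9%) for GAGACG, against 16.8% and 8.68% of all pooled regions in promoter windows. G and C made up a median of 43.5% of the bases at the 12 summits, against 40.3% at all promoter IDR peaks. At the weaker ribosomal protein regions it was 38.8%, against 36.3% at all pooled regions in promoter windows.

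Other sequences of 6 bases were frequent instead. They were chosen because they were in excess in these very 12 windows over all promoters, so their counts there are a description. TACGGT, or ACCGTA on the other strand, was in 6 of the 12 (50%), those of rpl-20, rpl-3, rpl-15, rpl-7, rps-20 and rps-1, against 5.83% of all promoter IDR peaks and 6.07% of all promoters. GGCCTA, with the reverse complement TAGGCC, was in 5 of the 12 (41.7%), those of rpl-3, rpl-15, rpl-1, rpl-7 and rpl-7A, against 4.08% and 3.48%. AGCGCG, with the reverse complement CGCGCT, was in 6 of the 12, and so was CGCTCC, with the reverse complement GGAGCG, against 9.04% and 8.75% of all promoter IDR peaks and 3.22% and 3.42% of all promoters. The rps-24 peak held none of these 4, and each of the other 11 held at least 1, which follows in part from how the 4 were chosen. The share of all promoter IDR peaks with at least 1 of the 4 is not given here.

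Ribosomal protein genes whose windows had no part in that choice held some of the sequences too. TACGGT on either strand was in 10 of 42 weaker regions (23.8%) and in 5 of 22 windows centred 300 bases upstream of the genes without a pooled region (22.7%). GGCCTA was in 9 of 42 (21.4%) and 5 of 22 (22.7%). AGCGCG was in 6 of 42 (14.3%) and 0 of 22, and CGCTCC in 3 of 42 (7.14%) and 1 of 22 (4.55%). All pooled regions in promoter windows held TACGGT in 5.44%, GGCCTA in 2.97%, AGCGCG in 3.61% and CGCTCC in 3.97%. Thus TACGGT and GGCCTA were about as frequent at ribosomal protein genes without a pooled region as at those with a weak one. Of these 22 genes, 15 did have a region in a replicate list.

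The sequences were then counted by strand. Of the 6 IDR windows with TACGGT, 5 had it in this form on the strand of the gene and 1 as ACCGTA, and all 5 with GGCCTA had it in that form. Within 600 bases before the start, GGCCTA in this form occurred in 24 of 78 ribosomal protein genes (30.8%), against 5.25% of all coding genes, at a median of 258.5 bases upstream of the start. Among the 66 genes without an IDR peak, which had no part in the choice, it was in 18 (27.3%). TACGGT in this form was in 11 of 78 (14.1%, against 8.4%), and its complement ACCGTA in 25 of 78 (32.1%, against 8.98%). By form, the counts of genes with and without an IDR peak went opposite ways. TACGGT was in 6 of the 12 genes with an IDR peak (50%) and in 5 of the other 66 (7.58%), while ACCGTA was in 1 of the 12 (8.33%) and in 24 of the 66 (36.4%). The sequences had been chosen on the peaks of these same 12 genes, so a high share of TACGGT there is partly built in. These counts were made after the sequences were seen and were not tested.

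**Figure D5:**
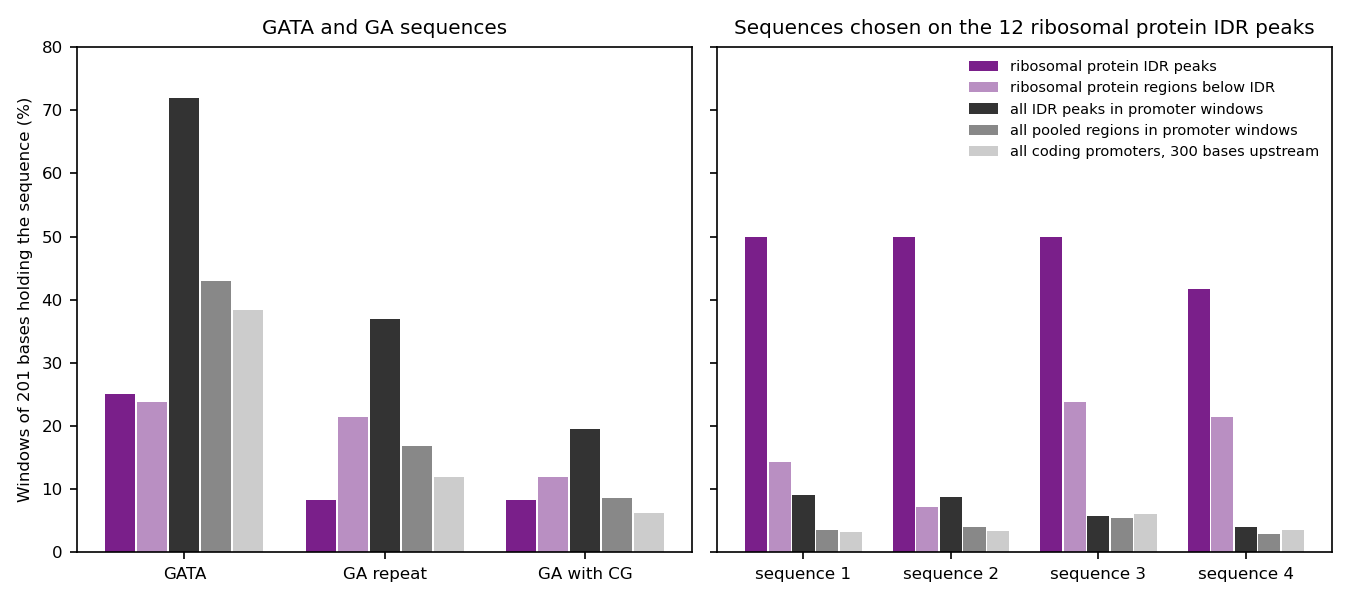
Share of windows of equal length, 100 bases to either side of their centre, that hold a sequence on either strand (vertical, percent) in ribosomal protein IDR peaks (n = 12), weaker ribosomal protein regions (n = 42), all promoter IDR peaks (n = 343), all pooled promoter regions (n = 9221) and all coding promoters (n = 19973); the left panel shows WGATAR under the label GATA, then GAGAGA under GA repeat and GAGACG under GA with CG, and the right panel shows AGCGCG as sequence 1, then CGCTCC as sequence 2, ACCGTA as sequence 3 and GGCCTA as sequence 4. WGATAR is in 25% of the first set and 72% of all promoter IDR peaks, and the sequences of the right panel, which were chosen on the first set, are most frequent there.

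Other genes of protein synthesis are set beside the 1.94% of all coding genes with an IDR peak. The mitochondrial ribosomal protein genes (mrpl- and mrps-) had 0 of 70, which leaves room for 4.29% (3 counts in 70) or, by the exact interval, 5.13%, below the interval of the cytosolic genes. A weaker pooled region was present at 33 of these 70 (47.1%), and 40.9% of all coding genes had a pooled region of any strength. Cytosolic ribosomal proteins and their close associates under other names (rla-0, rla-1, rla-2, ubl-1, ubq-2 and rack-1) had 0 of 6, with weak regions at rla-2 (11.3) and ubq-2 (11.7), a number too small to set against the others.

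Translation factor genes had 2 of 42 (4.76%, interval 0.582 to 16.2). They were iff-2, which encodes a factor of the eIF5A family, with a signal of 86.5, and eef-2, which encodes the elongation factor that moves the ribosome along the messenger RNA, with 44.2, and both peaks lacked WGATAR. Aminoacyl tRNA synthetase genes had 1 of 32 (3.12%, 0.0791 to 16.2), cars-1 for cysteine, with 44.6 and 2 WGATAR. The list made by name for ribosome assembly and ribosomal RNA synthesis had 1 of 24 (4.17%, 0.105 to 21.1). That gene was larp-1, with 30.1, which encodes a La-related RNA-binding protein, and its part in these processes was not examined. No other gene of the list had an IDR peak. The intervals of these 3 lists hold the share of all coding genes and overlap the interval of the ribosomal protein genes.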

How the data were processed

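Each line of the deposited ce11 region lists is 1 region, and its signal, a value given by the authors' peak caller, was the only measurement used. Per the deposited descriptions, a replicate list came from the replicate's own alignment plus a further file, the pooled list from both replicates, and the IDR list from the pooled and replicate lists. Not given in the sources used here are the aligner, peak caller, IDR threshold, signal scale and identity of the further file. The same lists on ce10 were not used here.

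Genes and starts came from Ensembl release 115 on WBcel235, whose coordinates ce11 shares, and sequence from the RefSeq genome of that assembly. Positions are 1-based. A region took a replicate's signal from the strongest of its summits inside the region. The sequences at the rpl-3 and rps-12 peaks are not reported here. Motifs were sought on both strands within 100 bases of the summit. Shares have 95% exact Clopper-Pearson intervals (scipy 1.17.1, Python 3.11.15), which cover counting error only, and genes and peaks are not replicates. No p-value was computed.

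The members, gene lists and motifs were chosen with earlier results of these data known. Genes were named if they had an IDR peak, were the 8 next by pooled signal or among the 4 highest in a replicate list without an IDR peak, shared a strongest region, had the number of another member in their names, lay across a shared promoter, or led another list. Genes without a region, downstream-like genes and those with downstream summits were named in addition, after their values were seen. Of 27 names listed for ribosome assembly, 24 were in the annotation. The assignment of regions to promoter windows and the count of WGATAR were tested on simulated data, and the other procedures were not. Alternatives were other lists, windows, start rules, motif windows and gap lengths.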

Additional observations from a re-analysis of the deposited data

How the results depend on the processing

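Of 44 alternative values computed for the counts and medians, 35 stayed within a set limit and 9 moved further. The limit was 1.5-fold for counts and, for the median signal, the SD of the 2 replicate medians (1.43). With the stronger 387 regions of the IDR list, 6 of 78 ribosomal protein genes had a peak in place of 12, and 1 small subunit gene in place of 5. Large subunit genes with a peak were 5 in place of 7 in that list. With the strongest 774 regions of a single replicate the counts ranged from 6 (without replicate 2) to 11 (without replicate 1) over all genes and from 1 to 4 for the small subunit. With each peak given to the nearest start within 5000 bases, 2 small subunit genes had one. For these other lists and rules, shares of all coding genes are given here only for the single replicate lists. With gaps of up to 1000 bases, 1 of 24 downstream-like genes (rpl-3) had an IDR peak, in place of 0 of 8. The median signal was 14.6 with genes without a region at 0, in place of 16.3, and from 8.17 to 10.2 in the single replicate lists, which have another scale. Windows from 500 and 2000 bases upstream gave 11 and 12 genes with an IDR peak, and WGATAR was in 4 of the 12 peaks over the whole region. No paired analysis was possible because the series has a single group. Depth is unknown, no control files were used here, and 2 replicates that rank the sites differently limit how firmly any single gene can be placed. The causes of these changes were not tested.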
